A study of Homo sapiens with 8 samples.

Results

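The ZNF genes of chromosome 19 are protein-coding genes of GENCODE release 44 whose symbol is ZNF followed by a digit and that lie on chromosome 19 of hg38. There were 249 such members among 20033 protein-coding genes, and another 266 ZNF genes lay on other chromosomes. A member was called bound when a peak shared at least 1 bp with the window that starts 1000 bp before the transcription start site (TSS) of any of its transcripts and ends 500 bp after it. PHF20 was bound at 60 members and PHF20L1 at 9, and the remaining 189 members had no promoter peak of either protein.

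The data are ChIP-Seq, in which chromatin is cross-linked, fragmented and precipitated, here through the HA tag, and the DNA is sequenced. The cells were U2OS, an osteosarcoma line. In the PHF20 group the cells over-expressed PHF20 with 3 HA copies at its N terminus (N-3xHA PHF20; 2 ChIP libraries and 1 input library). In the PHF20L1 group they over-expressed PHF20L1 with the tag at either end (N-3xHA PHF20L1 in 1 ChIP library and C-3xHA PHF20L1 in 2, with 1 input library each). All 8 libraries came from the same line, every ChIP library carried an ectopic tagged protein, and the ChIP cells were sorted by GFP to enrich for it, so endogenous PHF20 and PHF20L1 were not measured. The deposited values are the start and end of each final peak, with replicates combined by the authors. They hold no height, score or read count, so the depth behind a peak is unknown, no spread between replicates can be given and no test was run. The PHF20 list holds 4147 peaks and the PHF20L1 list 723. A promoter without a peak is one that was not called under the authors' thresholds, and absence of the protein from it cannot be concluded.

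Most ZNF proteins of this chromosome join a KRAB domain to an array of C2H2 zinc fingers. The fingers read DNA sequence, often that of a transposable element, and the KRAB domain binds TRIM28, which brings in SETDB1 to methylate histone H3 and silence the site. The genes arose by repeated tandem duplication and stand in clusters along both arms. PHF20 and PHF20L1 are paralogs whose Tudor domains bind methylated lysine, and both associate with the NSL complex, which carries the acetyltransferase KAT8 (MOF) to promoters of housekeeping genes.

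The sequences below are those around the TSS of members that had a PHF20L1 peak or one of the widest PHF20 peaks, and they are shown because the promoter motifs described later lie in them. They are from hg38 and are written 5′ to 3′ on the strand of the gene. Capitals mark TGACGTCA, the cyclic AMP response element (CRE), or ACTTCCGG, a motif of the ETS type, read on either strand. The first 5 are the 100 bases that end just before the TSS of the Ensembl canonical transcript, at chr19:32345510-32345609 (ZNF507, plus strand), chr19:57280385-57280484 (ZNF460, plus), chr19:9538646-9538745 (ZNF426, minus), chr19:9621233-9621332 (ZNF561, minus) and chr19:57240532-57240631 (ZNF805, plus). The last 3 are the 30 bases around a motif, at chr19:57320467-57320496 (ZNF543, plus), chr19:36666819-36666848 (ZNF461, minus) and chr19:58002855-58002884 (ZNF606, minus).
ZNF507: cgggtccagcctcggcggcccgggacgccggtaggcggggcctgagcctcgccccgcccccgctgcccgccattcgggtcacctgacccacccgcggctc
ZNF460: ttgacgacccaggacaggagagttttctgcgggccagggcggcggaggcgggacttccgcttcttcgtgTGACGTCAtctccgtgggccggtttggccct
ZNF426: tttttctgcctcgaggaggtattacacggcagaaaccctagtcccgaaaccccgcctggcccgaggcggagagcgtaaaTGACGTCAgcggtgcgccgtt
ZNF561: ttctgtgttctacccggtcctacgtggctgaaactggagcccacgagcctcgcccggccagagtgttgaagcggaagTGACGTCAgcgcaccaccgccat
ZNF805: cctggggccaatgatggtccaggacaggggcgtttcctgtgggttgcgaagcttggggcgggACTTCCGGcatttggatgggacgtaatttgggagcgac
ZNF543: gcttcgtcgcgTGACGTCAtctccgtgagc
ZNF461: tgtccacagctACTTCCGGtaggagcctcg
ZNF606: gctgcccgacgCCGGAAGTgcccgcctgga

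PHF20 occupied the promoters of 24.1% of the members (60 of 249, Wilson 95% interval 19.2 to 29.8%), close to the 20.7% of all protein-coding genes (4148 of 20033) that is the background here. On the same chromosome 13.1% of the other coding genes were bound (161 of 1227, 11.3 to 15.1%), and among the ZNF genes of other chromosomes 40.2% were (107 of 266, 34.5 to 46.2%). The members thus lay above the other coding genes of chromosome 19 and below the ZNF genes elsewhere, with intervals that did not overlap in either case. When the narrower part of the list was set aside, leaving peaks not below its median width, 37 members were bound (14.9%) against 12.1% of all coding genes, 22.6% of the ZNF genes elsewhere and 6.11% of the other coding genes of chromosome 19. The order of the groups was the same, but no intervals were made for these shares, so their separation was not assessed. Intervals throughout cover counting error only, and neighbouring genes that share a peak are not independent of each other.

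PHF20L1 occupied 3.61% of the members (9 of 249, 1.91 to 6.73%) against a background of 3.82%. Of the ZNF genes elsewhere 13 were bound (4.89%), and of the other coding genes of chromosome 19, 21 (1.71%, 1.12 to 2.60%). The intervals of these shares overlapped that of the members. Every member bound by PHF20L1 was also bound by PHF20, so the members with both equalled 3.61% against a background of 3.73%, and the members with either protein were 24.1% against 20.8%. The lists were made from different numbers of libraries, so their sizes were not set against each other.

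The members fell into 16 groups when neighbours at most 1 Mb apart were joined, and these are called clusters 1 to 16 from the tip of 19p to the tip of 19q. Clusters 4, 6, 7 and 14 are single genes. With no centromere position in the annotation used, the arms were split at the largest gap between members, 6.09 Mb between ZNF254 and ZNF536. On 19p 10 of 85 members were bound by PHF20 (11.8%, 6.52 to 20.3%) and on 19q 50 of 164 were (30.5%, 24.0 to 37.9%). PHF20L1 was bound at 2 members of 19p (2.35%, 0.648 to 8.18%) and 7 of 19q (4.27%, 2.08 to 8.55%), with intervals that overlap and that hold the background of 3.82%.

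A large cluster on 19p had no peak at all. Cluster 5 runs from ZNF101 to ZNF254, at 19.67 to 24.13 Mb next to the centromere, and none of its 37 members had a peak of either protein, which allows a share of up to 8.11%. It holds ZNF91 and ZNF93, known as repressors of SVA and LINE-1 retrotransposons, ZNF43, ZNF85 and ZNF208. No PHF20 peak of any kind fell within its span. The last one before it lay 152 kb ahead, at the promoters of NDUFA13 and TSSK6, and the first one after it 5.08 Mb beyond, at the promoter of UQCRFS1. Only 3 other coding genes lie in the span, and none of them was bound. Without this cluster, which was set aside because it was empty, 10 of the 48 members of 19p were bound (20.8%, 11.7 to 34.3%), still below the 30.5% of 19q but with overlapping intervals, and 60 of the 212 members of the whole chromosome were (28.3%, 22.7 to 34.7%).

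**Figure D1:**
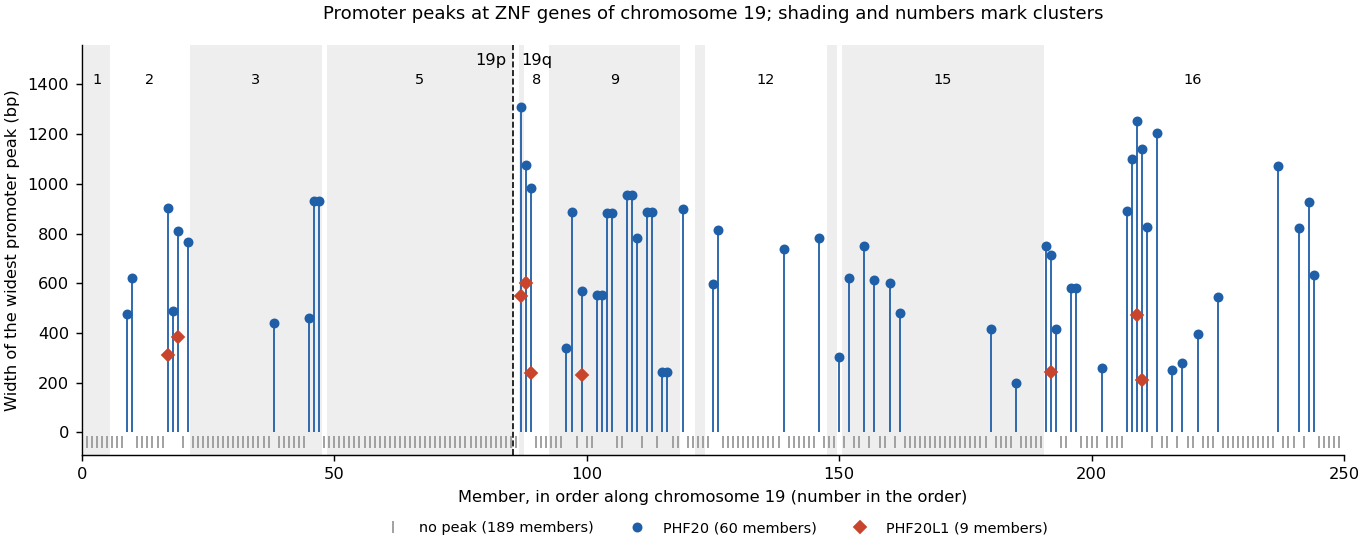
The 249 members in their order along chromosome 19 (horizontal axis) with the width in bp of the widest promoter peak of PHF20 (blue circles, 60 members) and PHF20L1 (red diamonds, 9 members); grey ticks are the 189 members without a peak, shading and numbers mark the clusters (only those of 5 or more members are numbered) and the dashed line divides the arms. Cluster 5 holds 37 grey ticks and no point, and the tallest points are ZNF507 (1308 bp) at the start of 19q and a run of cluster 16 that includes ZNF460 (1252 bp).

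Among the clusters of 5 or more members the highest share was that of cluster 9 on 19q, from ZNF565 to ZNF573 at 36.18 to 37.82 Mb, where PHF20 was bound at 14 of 26 members (53.8%, 35.5 to 71.2%). The count was 9 with the outermost TSS of each gene alone and 8 with the wider peaks alone. These 14 were ZNF260, ZNF529, ZNF461, ZNF790, ZNF345, ZNF829, ZNF568, ZNF585B, ZNF383, ZNF875, ZNF569, ZNF570, ZNF540 and ZNF571. They shared 10 peaks among them. ZNF260 had a narrow peak of 338 bp, ZNF529 one of 888 bp, ZNF461 one of 568 bp and ZNF875 one of 784 bp. The widest, of 957 bp, stood between ZNF585B and ZNF383. Its members without a peak included ZNF146, a gene of zinc fingers with no KRAB match, and ZNF382.

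Cluster 16, at the end of 19q (55.48 to 58.48 Mb, ZNF628 to ZNF446), held the most bound members, 20 of 59 (33.9%). Its widest peaks stood close together. ZNF264, ZNF805, ZNF460, ZNF543 and ZNF304 are 5 neighbours in a row that were all bound, the longest such run on the chromosome, with peaks of 891, 1102, 1252, 1139 and 825 bp. ZNF304 is known for recruiting TRIM28 to silence tumour suppressor genes in colorectal cancer cells. ZNF548, a little farther on, had a peak of 1205 bp, and ZNF606 one of 1070 bp. The other bound members of the cluster were ZNF628 (749 bp), ZNF579 (714 bp), ZNF524 (416 bp), ZNF580 (580 bp), ZNF581 (the same peak and another of 484 bp), ZNF667 (257 bp), ZNF772 (252 bp), ZNF773 (279 bp), ZNF416 (395 bp), ZNF551 (546 bp), ZNF544 (824 bp), ZNF497 (926 bp) and ZNF837 (633 bp). ZNF274, which is known to bind the 3′ ends of other zinc finger genes together with SETDB1, lies in this cluster and had no promoter peak.

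Cluster 15 (51.57 to 53.58 Mb, ZNF175 to ZNF331) has more members than cluster 5 and was not empty, with 7 of 40 members bound (17.5%). Its widest peak was that of ZNF350, of 750 bp. ZNF350 (ZBRK1) is known as a repressor that acts with BRCA1. The others were ZNF577 (623 bp), ZNF614 (614 bp), ZNF616 (601 bp), ZNF766 (481 bp), ZNF160 (416 bp) and ZNF845. The peak of ZNF845 was 200 bp wide, the narrowest at any member. That equals the length to which reads were extended before calling. From ZNF480 to ZNF816, 17 neighbours in a row were without a peak.

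Cluster 12 (43.53 to 45.08 Mb, ZNF575 to ZNF296) had 4 of 24 members bound, with ZNF428 the widest at 815 bp, then ZNF180 (784 bp), ZNF226 (737 bp) and ZNF576 (597 bp). On 19p, cluster 3 (11.48 to 12.64 Mb, ZNF653 to ZNF791) had 4 of 26 bound, of which ZNF564, ZNF490 and ZNF791 lie at its far end. ZNF490 and ZNF791 shared a peak of 929 bp, ZNF564 had a pair of peaks of 461 and 323 bp and ZNF136 a peak of 441 bp. The 16 members from ZNF653 to ZNF625 in this cluster had none.

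Cluster 2 (7.07 to 9.79 Mb, ZNF557 to ZNF846) had the highest share on 19p, with 6 of 16 bound (37.5%). ZNF426 had the widest peak there (903 bp), followed by ZNF561 (811 bp), ZNF846 (767 bp), ZNF317 (621 bp), ZNF121 (489 and 425 bp) and ZNF558 (476 bp). Cluster 1, near the tip of 19p (2.82 to 2.94 Mb), had no bound gene among 5. In cluster 8 (34.68 to 34.96 Mb, ZNF302 to ZNF792) 2 of 5 were bound, ZNF302 and ZNF181. The small clusters added ZNF546 (898 bp) in cluster 10, where 1 of 3 was bound, and none of 2 in cluster 11 and in cluster 13. Of the single genes, ZNF507 and ZNF473 were bound and ZNF333 and ZNF536 were not. ZNF473 (ZFP100) is a component of the U7 particle that processes histone mRNA, and its peak of 302 bp was shared with VRK3.

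**Figure D2:**
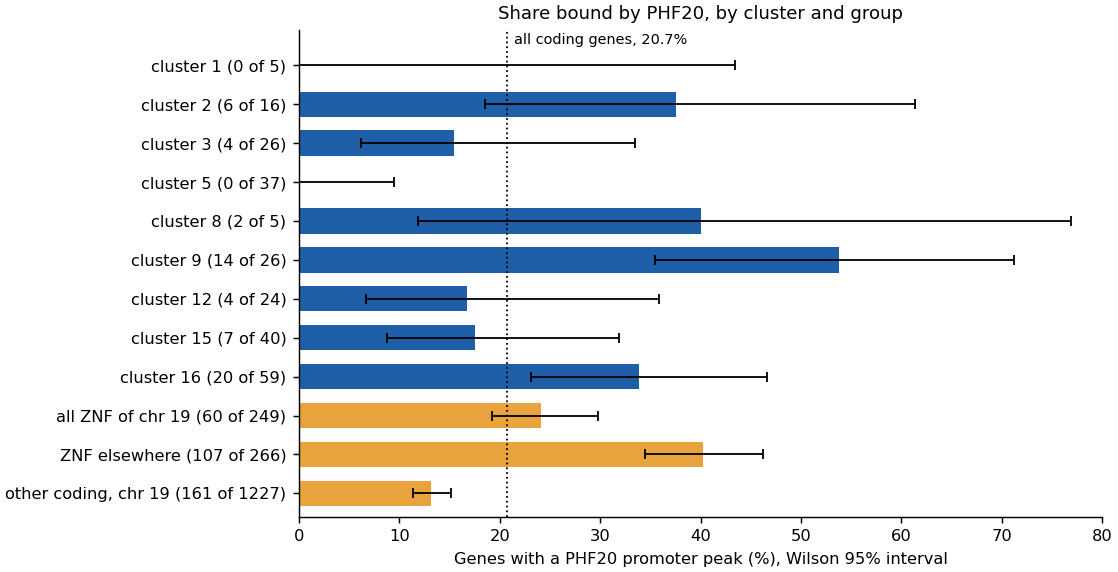
Percent of genes with a PHF20 promoter peak in each cluster of 5 or more members (blue) and in 3 larger groups (orange), with Wilson 95% intervals; the dotted line is the 20.7% of all coding genes. Cluster 9 (14 of 26) and ZNF genes of other chromosomes (107 of 266) have intervals wholly to the right of the line, as does cluster 16 (20 of 59), while cluster 5 (0 of 37) and the other coding genes of chromosome 19 lie wholly to its left.

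PHF20L1 was found at ZNF426 and ZNF561 in cluster 2, ZNF507, ZNF302 and ZNF181 in clusters 7 and 8, ZNF461 in cluster 9, and ZNF579, ZNF460 and ZNF543 in cluster 16. ZNF507, ZNF302 and ZNF181 are consecutive members, although 2 clusters hold them. The PHF20L1 peak was 550 bp wide at ZNF507 and 473 bp at ZNF460. ZNF302 had a PHF20L1 peak of 602 bp, the widest at a member, and another of 221 bp. The peaks of ZNF561 (385 bp) and ZNF426 (311 bp) were intermediate, and those of ZNF579 (241 bp), ZNF181 (237 bp), ZNF461 (231 bp) and ZNF543 (211 bp) were narrow. All 10 PHF20L1 peaks at members lay wholly within a PHF20 peak. Over all coding genes, 747 of the 766 with a PHF20L1 promoter peak also had one of PHF20, so such overlap was general. How many of all PHF20L1 peaks lay wholly within a PHF20 peak was not counted.

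Where PHF20L1 was present the PHF20 peak tended to be wide. The 10 PHF20 peaks that a PHF20L1 peak overlapped were 943 bp wide in the median, and the other 48 were 608 bp wide. A wider peak has more room to overlap another, so part of this difference may be built into the split. The same split was not made over the peaks at all coding promoters. The exceptions were ZNF461, whose PHF20 peak of 568 bp carried PHF20L1, and the second peak of ZNF302, of 344 bp. Wide PHF20 peaks without PHF20L1 also occurred, as at ZNF548 (1205 bp), ZNF805 (1102 bp) and ZNF606 (1070 bp). Peak width is no measure of height, and it also depends on the depth of the replicate in which the peak was called.

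Most of the peaks covered a start site, but a peak was counted only if it touched a promoter window. Distances were taken to the nearest of all annotated start sites. Closeness to a TSS is thus partly built in, and the same distances were not taken for the peaks at all coding promoters. There were 58 distinct PHF20 peaks at members, whose widths had a median of 628 bp (quartiles 465 and 888 bp, range 200 to 1308 bp), against 635 bp for the 3562 peaks at coding promoters in general. The median distance from the centre of a peak to the nearest TSS of its member was 106 bp, and 47 of the 58 centres lay within 250 bp. Of the centres 29 lay upstream, 27 downstream and 2 on a TSS. Of the 58 peaks 49 covered a TSS of the member and 42 that of its canonical transcript. At 276 bp the median of the 10 PHF20L1 peaks lay below the 323 bp of the 615 at coding promoters.

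**Figure D3:**
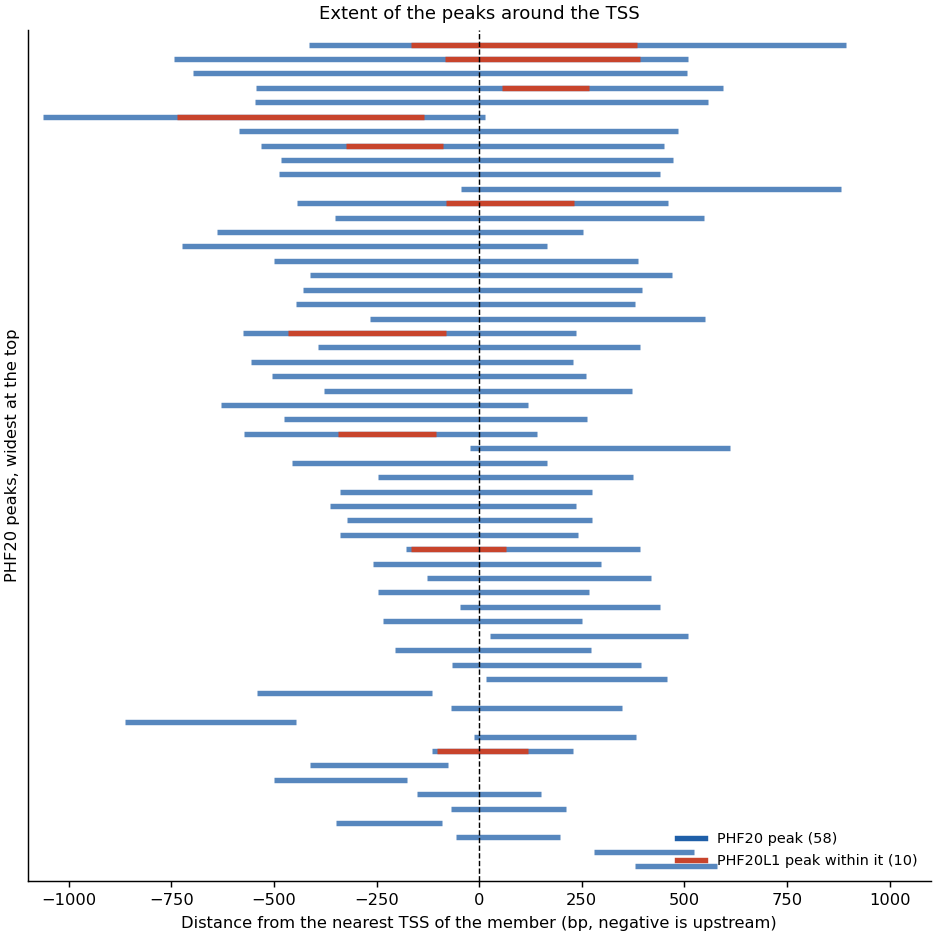
Extent of the 58 PHF20 peaks at members (blue, widest at the top) around the nearest TSS of the member (dashed line), in bp with upstream to the left; red marks the 10 PHF20L1 peaks. Of the 58, 49 cross a TSS, and the most distant centres are those of ZNF524 (-655 bp) and ZNF845 (479 bp).

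The calls did not hang on the edge of the window. No member without a peak had one within a further 1000 bp, and the bodies of the members outside their own promoters held a single PHF20 peak, in ZNF580, which is the promoter peak of ZNF581. Chromosome 19 carried 188 PHF20 peaks in all, of which 75 lay within the spans of the clusters and 56 of these at members. For PHF20L1 the corresponding counts were 25, 10 and 9.

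A number of the peaks could not be given to a single gene. Of the 58, 38 touched the promoter of 1 member and of no other coding gene, and 7 touched the promoters of 2 members, which accounts for 14 members. Another 14 touched a member and a coding gene that is not a member (the peak between ZNF790 and ZNF345 is in both counts). Such partners included MBD3L1 at ZNF558, SCGB2B2 at ZNF302, IRGQ and SRRM5 at ZNF576, FIZ1 at ZNF524 and ZIK1, another KRAB zinc finger gene, at ZNF416. At ZNF564, ZNF548, ZNF772, ZNF551 and ZNF544, and between ZNF790 and ZNF345, the partner has an identifier and no symbol. With positions alone, which of the genes a shared peak belongs to cannot be told apart. The peak given to ZNF524 was centred at -655 bp from its TSS.

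Genes whose promoter window overlapped that of an opposite-strand coding gene were bound more often than others, among the members and among all genes. Their promoters are called divergent here, although the orientation of the start sites was not checked. Of the 31 members with a coding gene on the opposite strand whose promoter window overlapped theirs, 19 were bound by PHF20 (61.3%, 43.8 to 76.3%), against 41 of 218 members without such a partner (18.8%, 14.2 to 24.5%). Over all coding genes the shares were 39.6% (1475 of 3724) and 16.4% (2673 of 16309). A peak in the stretch that such windows have in common is counted for each gene, so part of this difference is built into the count. Of the 19 bound members 18 had their peak in that common stretch (58.1% of the 31, 40.8 to 73.6%), and ZNF529 did not. Among the members 9 divergent pairs consist of members on both sides, and in 6 of them both genes were bound. These were ZNF490 with ZNF791 in cluster 3, and ZNF790 with ZNF345, ZNF829 with ZNF568, ZNF585B with ZNF383, ZNF569 with ZNF570 and ZNF540 with ZNF571 in cluster 9. In the pair of ZNF529 and ZNF382 the promoter between them had no peak, and that of ZNF529 lay at another of its start sites. The pairs of ZNF146 with ZNF565 and ZNF587 with ZNF814 had none. Cluster 9 holds 14 of the 31 members with a divergent partner and cluster 5 none, so position and promoter arrangement moved together, and their parts in the result were not tested.

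CpG content moved with the calls as well. The ratio of observed to expected CpG in the 500 bp on both sides of the canonical TSS had a median of 0.754 at the 60 bound members and 0.686 at the 189 others, against 0.725 over all coding genes and 0.797 over all bound ones. GC content differed less, with medians of 59.4% and 58%. In cluster 5 the median CpG ratio was 0.531, and only 8 of its 37 members reached 0.6, whereas 57 of the 60 bound members did. The unbound members outside cluster 5 had a median of 0.715, with 132 of 152 at 0.6 or more.

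In every class of CpG content from a ratio of 0.4 upward, the interval of the members' share held the share of all genes. At a ratio of 0.6 to 0.8, 42 of 154 members were bound (27.3%, 20.9 to 34.8%) against 27.5% of all coding genes in this class. At 0.8 and above 15 of 43 were (34.9%, 22.4 to 49.8%) against 30.2%, and at 0.4 to 0.6, 2 of 45 (4.44%, 1.23 to 14.8%) against 11.2%. Under 0.4 the interval lay above the share of all genes, with 1 of 7 bound (14.3%, 2.57 to 51.3%) against 2.16% for PHF20. For PHF20L1 the share of all genes was 0.404%, and for both proteins the share of the members rests on 1 gene. The 8 members of cluster 5 with a ratio of 0.6 or more were all without a peak, but so few genes allow a share of up to 37.5%. That 1 member is ZNF579 (0.320), which carried both proteins. ZNF302 and ZNF181, also with both, were at 0.990 and 0.891.

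**Figure D4:**
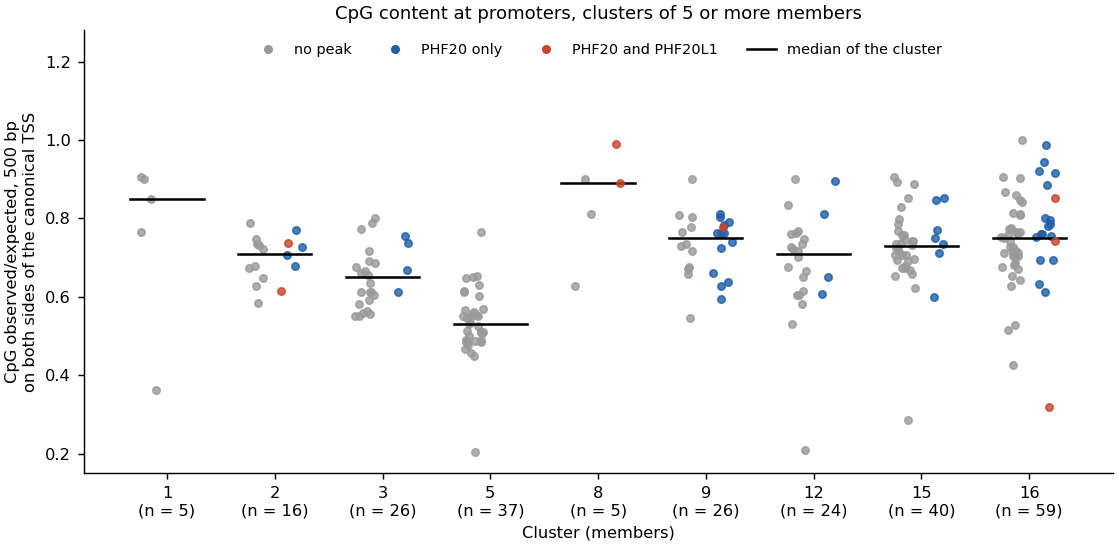
CpG observed/expected in 1 kb around the canonical TSS (vertical axis) for each member of the clusters with 5 or more members; grey points have no peak, blue points PHF20 only and red points both proteins, and black lines are cluster medians. Cluster 5 lies lowest, with a median of 0.53, cluster 1 has no bound point, and in clusters 2, 3, 9, 12, 15 and 16 most points with peaks lie among those without.

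The authors kept reads with a unique position, and the members are paralogs. The share of 50-base sequences that occur once in the genome was therefore counted in the promoter window of each canonical TSS. Windows of other transcripts, which also entered the calls, were not counted. The median of this share was 100% at bound members, 98.5% at unbound members and 95.2% in cluster 5, where the lowest member was at 78.2%. The 5 members under 80% were all unbound, but so few genes allow a share of up to 60.0%. Of those at 80 to 95%, 12 of 68 were bound (17.6%) and of those at 95% or more, 48 of 176 (27.3%). ZNF461, at 81.4%, had peaks of both proteins. The part of read uniqueness in the calls was not tested.

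Motifs were sought on both strands from 250 bp before to 50 bp after the canonical TSS. The ETS-type motif ACTTCCGG was in 25% of bound members (15 of 60) and in 17.5% of unbound ones (33 of 189), with overlapping intervals, against 6.14% of all coding promoters and 16.4% of the bound ones. None of the 37 promoters of cluster 5 held it, and 21.7% of the unbound members outside cluster 5 did. The motif was thus frequent in members with and without a peak. In the promoter of ZNF805 it ended 31 bp before the TSS, in that of ZNF606 46 bp before it, and in that of ZNF461 it began at the TSS.

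The CRE, TGACGTCA, which ATF and CREB factors are known to bind, was in 6 of 60 bound members (4.66 to 20.1%) and in 1.59% of unbound ones (3 of 189, 0.541 to 4.56%). Its share was 2.69% over all coding promoters and 3.96% over the bound ones. With the outermost TSS 4 bound members had it (2.62 to 15.9%) and with the TSS nearest the peak 5 (3.61 to 18.1%), and these intervals overlap that of the unbound members. Of the 9 members with PHF20L1 4 had it, ZNF426, ZNF561, ZNF460 and ZNF543, and of the 51 with PHF20 alone 2, ZNF121 and ZNF875, in which it lay outside the peaks. The letters lay close to the TSS, from 21 to 14 bp before it in ZNF426, from 23 to 16 bp in ZNF561 and from 31 to 24 bp in ZNF460, and from 6 to 13 bp after it in ZNF543. In the peaks themselves, 6 of the 58 PHF20 peaks at members held a CRE (10.3%, 4.83 to 20.8%) against 3.87% of the 3562 at coding promoters. These 6 were at ZNF426, ZNF561, ZNF180, ZNF460, ZNF543 and ZNF548. Of the 10 PHF20L1 peaks 2 held it, those of ZNF426 and ZNF460 (5.67 to 51.0%), against 5.04% of the 615 at coding promoters, and in ZNF561 and ZNF543 it lay outside the PHF20L1 peak. A match describes letters and is not evidence of a bound factor.

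Among the 6 members with a CRE in a PHF20 peak, some sites resembled each other beyond the motif. Over the 30 bases centred on it ZNF460 and ZNF543, which are neighbours in cluster 16, were identical at 27, of which 19 were among the 22 bases outside the motif. ZNF426 and ZNF561, both in cluster 2, were identical at 21 of the 30, and the remaining 13 of the 15 pairs at no more than 16. The 3 unbound members with a CRE lie in the same clusters, ZNF266 and ZNF562 in cluster 2 and ZNF547 in cluster 16. Their sites were not compared, so whether the resemblance goes with the peaks was not tested. As printed above, ZNF460 and ZNF543 both go on with tctccgtg after the motif.

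Of the other motifs, ACTACAATT, part of the element bound by ZNF143, was in 3 of 60 bound members, ZNF317, ZNF121 and ZNF180, in 0.529% of unbound members and in 0.449% of all coding promoters. AAGATGGCG, of the YY1 type, was in 8.33% of bound and 2.65% of unbound members, against 2.84% of all coding promoters and 6.36% of the bound ones. When the outermost TSS was used, 3 of 60 bound and 2.12% of unbound members had it. Among PHF20 peaks 8.62% of those at members held it, close to the 7.05% of those at coding promoters. CACGTGAC, an E-box, was in none of the 60 bound members, although 6.62% of bound coding promoters held it, and TCGCGAGA, of the ZBTB33 type, was in none either. The PHF20 peak of ZNF317 did hold TCGCGAGA, from 331 to 338 bp after the TSS and so outside the stretch searched. TATAAA, the TATA box, was in no bound member, in 3.70% of unbound members, in 4 of 37 members of cluster 5 (10.8%) and in 9.71% of all promoters. Its absence depended on the TSS used, since 3 of 60 bound members had it with the outermost TSS, against 7.94% of unbound ones. It was also in 8.62% of the PHF20 peaks at members, against 10.6% of those at coding promoters. GCATGCGC, of the NRF1 type, was in 1.67% of bound and 5.82% of unbound members. GGGCGG, the GC box bound by SP factors, was common in all sets (63.3% and 69.3%). Most of these counts at members are below 10, and for each of these motifs the intervals of bound and unbound members overlap.

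**Figure D5:**
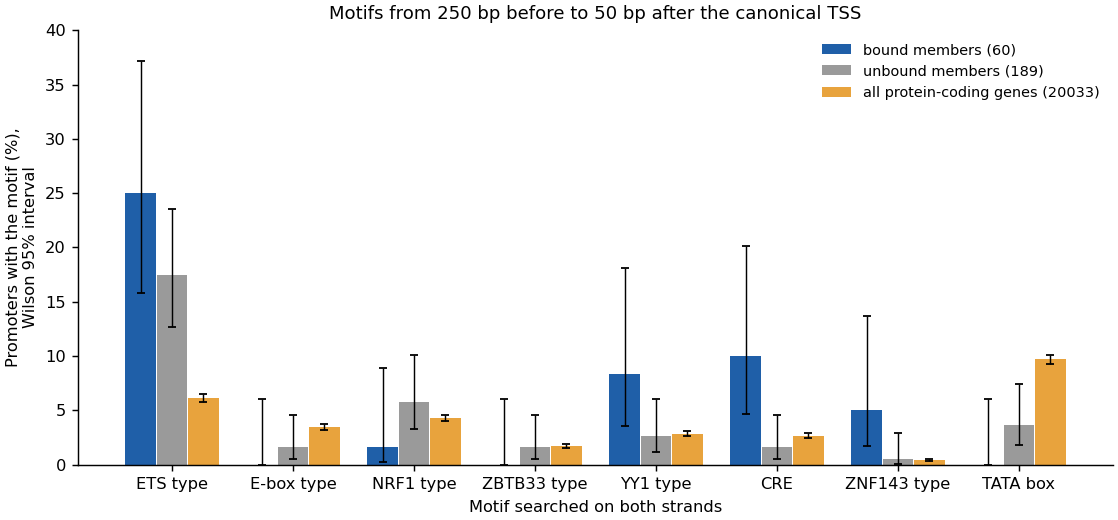
Percent of promoters that hold each motif, with Wilson 95% intervals, for bound members (blue, 60), unbound members (grey, 189) and all coding genes (orange, 20033); the GC box is left out because it is frequent in all. The ETS-type motif is highest in both sets of members (25% and 17.5%, against 6.14%), and the CRE is in 6 of 60 bound members against 1.59% of unbound ones.

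The proteins of bound and unbound members were much alike. From the translated coding sequence of the canonical transcript, the median number of C2H2 fingers was 12 in each set, and the median lengths were 563 and 588 residues. A KRAB match was found in 213 members, of which 47 were bound by PHF20 (22.1%, 17.0 to 28.1%), and the other 36 had 13 bound (36.1%, 22.5 to 52.4%). Bound members without it included ZNF507 and ZNF579. Of the 66 members with up to 9 fingers 18 were bound, of the 88 with 10 to 13 fingers 23, and of the 95 with 14 or more 19. None of these 95 had PHF20L1, which allows a share of up to 3.16%, or 3.89% by the Wilson interval, against 3.61% of all members. The 9 members with PHF20L1 had from 7 fingers (ZNF302) to 13 (ZNF543).

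Genes with which KRAB proteins work were bound here and there. In a list of 14 genes of KRAB-dependent silencing, 3 had a PHF20 promoter peak, against the background of 20.7%. They were SETDB1, the histone H3 methyltransferase (680 bp), CBX3, a heterochromatin protein (220 bp), and PPHLN1, a subunit of the HUSH silencing complex (1129 bp), which also had a PHF20L1 peak of 464 bp. TRIM28, the corepressor that KRAB domains bind, and DNMT1, both on chromosome 19, had none. Among 16 zinc finger genes of chromosome 19 with other symbols (ZFP, ZSCAN, ZIM, ZIK and PEG3), PHF20 was bound at ZFP30 (438 bp), ZIK1 and ZSCAN22 (550 bp), and PHF20L1 at none.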

How the data were processed

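HA ChIP-Seq peaks of PHF20 (2 ChIP libraries, 1 input) and PHF20L1 (3 ChIP libraries, 2 inputs) in U2OS cells were used. The deposited values are positions, start and end in bp on hg38. The authors mapped 50-base reads with Bowtie 1.1.2, kept unique positions, removed duplicates, called peaks with MACS2 2.2.7.1 against input with an extension of 200 bp, dropped blacklisted regions and kept peaks of the best replicate that overlapped those of the others. They left out 1 failed PHF20 replicate. Neither depth nor replicate values are in these lists. There were 0 columns of other samples.

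Coordinates are counted from 1. Genes, TSSs and coding sequences came from GENCODE release 44, which is later than the release the authors used. Members and lists were chosen with earlier results of these data known. Described by name were all members with PHF20L1 and the 10 widest and 5 narrowest PHF20 peaks. The widest peak of each cluster of 5 or more members was also named, and other bound members by width. Some members were named after their calls were seen. These were ZNF91, ZNF93, ZNF43, ZNF85, ZNF208, ZNF146, ZNF382, ZNF274, ZNF266, ZNF562 and ZNF547, without peaks, and the motif-bearing ZNF180, ZNF317, ZNF121 and ZNF875. Shares have Wilson 95% intervals. Where a count of 0 has a limit, it is the share that 3 counts would make, unless called Wilson. Fingers were counted as C2H2 patterns and KRAB by a profile of 85 proteins. Alternatives changed overlap, peak width, TSS, window, cluster gap and sequence length. Python 3.11.15, numpy 2.4.6, scipy 1.17.1, pysam 0.24.0, numba 0.67.0 and matplotlib 3.10.9 were used, and the scripts were tested on simulated data.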

Additional observations from a re-analysis of the deposited data

How the results depend on the processing

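No paired analysis was possible because each deposited list merges its replicates, and for the same reason no replicate could be left out. Of 104 alternative values, 84 stayed within the margin set for them and 20 moved. They are counts, shares and medians, which have no direction to reverse. They are not independent, since the values for both proteins equal those for PHF20L1, and the 84 include those of cluster 5 given below. Restriction to the wider peaks, those not narrower than the median of all peaks of the same protein, left 37 members bound by PHF20, 4 by PHF20L1 and 4 by both proteins, 6 on 19p and 31 on 19q. Peaks of at least 300 bp left 5 bound by PHF20L1 and 5 by both. Of the 60 members 27 kept PHF20 under every alternative. Joining members up to 2 Mb apart gave 8 clusters. With the outermost TSS the median CpG ratio of unbound members was 0.661. With 36-base sequences the median unique share was 98.5% at bound and 93.6% at unbound members, and with 100-base sequences it was 100% at unbound members. The following counts were added after seeing the data. Cluster 5 had 0 bound members under every alternative, which its lack of any peak within 152 kb had fixed, and cluster 9 had 8 with the wide peaks and 9 with the outermost TSS. The depth behind a peak is unknown, and neither a weak nor a missing peak can be graded.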
